A study of Homo sapiens with 105 samples.

Results

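The genes described here are 39 genes of DNA replication and of the passage from G1 into S phase, out of 19775 genes with a probeset of their own on the Affymetrix U133 Plus 2.0 array. A gene was taken where the probe annotation names it alone, and the brightest of its probesets by the mean over arrays stood for it, which gave a value for all 39. The arrays measured RNA of Vk2/E6E7 cells, a line of human vaginal epithelium immortalized with the papillomavirus genes E6 and E7, which all groups carry. Cells were exposed for 6 h to the compounds that the study calls pro-inflammatory or immunomodulatory (PIC), to the gels it calls non-inflammatory (NIC), or to growth medium alone (GM). The PICs were the detergent N-9 (12.5 μg/ml, 9 arrays), the TLR ligands imiquimod (IMQ, 6 arrays), MALP2 (200 ng/ml, 6 arrays) and Pam3CSK4 (10 μg/ml, 6 arrays), and the cytokine TNF-α (40 ng/ml, 5 of 6 arrays used). The NICs were the cellulose gels HEC and CMC (1 mg/ml and 9 arrays each), and 53 of 54 GM arrays served as the common control. For IMQ the sample labels give 30 mg/ml, whereas the methods of the study give the same number in μg/ml, and which of them was used is not known here. All groups are therefore of 1 cell line, in which E6 and E7 are known to act on p53 and RB. The labels number the arrays of each group as biological replicates but do not describe the cultures behind them. The tests therefore gauge only how much these arrays vary.

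Replication begins with licensing, in which the origin recognition complex (ORC1, ORC6) together with CDC6 and CDT1 loads the MCM2 to MCM7 helicase onto DNA in G1. MCM10, CDC45 and the GINS complex then turn the helicase on, and primase, the polymerases, the PCNA clamp with its RFC loader, FEN1 and LIG1 copy the strands and join the fragments. Cyclin D and cyclin E kinases release E2F factors from RB, and E2F factors drive transcription of most of these genes, so that the genes are widely read as a sign of entry into S phase.

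Promoter sequences were looked up for the 39 genes because E2F binding is the control these genes are best known to share. In the RefSeq promoter windows of 300 bases (250 before and 50 after the start, build GRCh38.p14) 34 of the 39 genes were matched, with 44 windows in all. The letters TTTGGCGC, TTTCCCGC, TTTCGCGC or TTTGCCGC, searched on both strands, were present in 20 of these 44 windows, against 3.31% of all 35116 windows, and matches on opposite strands can overlap. Of the genes that were lower with N-9 (described later), 14 of the 23 with a window held a match, and of the others 5 of 11 did. A match is a description of the letters only. Stretches of 100 bases before and 20 after the start are shown for 4 genes that were lower with N-9 and with IMQ (MCM3, CDT1, UHRF1, PCNA), for CDC6, which was higher with both, and for CCNE1, whose differences had opposite signs. UHRF1 has 3 and PCNA 2 listed starts, of which the one shown for UHRF1 is the most upstream. Capitals mark the matched letters, on the gene's strand.
MCM3 (chr6:52284723-52284842, minus strand): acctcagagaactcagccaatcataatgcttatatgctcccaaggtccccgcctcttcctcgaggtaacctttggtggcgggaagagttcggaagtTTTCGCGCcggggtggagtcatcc
CDT1 (chr16:88803689-88803808, plus strand): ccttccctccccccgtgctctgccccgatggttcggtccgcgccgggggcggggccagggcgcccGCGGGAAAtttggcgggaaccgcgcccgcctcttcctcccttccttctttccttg
UHRF1 (chr19:4909401-4909520, plus strand): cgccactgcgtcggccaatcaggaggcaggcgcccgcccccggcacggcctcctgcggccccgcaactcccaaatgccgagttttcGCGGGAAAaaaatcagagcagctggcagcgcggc
PCNA (chr20:5126603-5126722, minus strand): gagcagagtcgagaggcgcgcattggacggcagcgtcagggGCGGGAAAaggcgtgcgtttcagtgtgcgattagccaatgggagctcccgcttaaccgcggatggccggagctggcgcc
CDC6 (chr17:40287779-40287898, plus strand): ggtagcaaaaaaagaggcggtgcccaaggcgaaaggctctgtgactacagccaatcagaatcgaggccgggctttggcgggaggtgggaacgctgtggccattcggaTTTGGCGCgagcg
CCNE1 (chr19:29811891-29812010, plus strand): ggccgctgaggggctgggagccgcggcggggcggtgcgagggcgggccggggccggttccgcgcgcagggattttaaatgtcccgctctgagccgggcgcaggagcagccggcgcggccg
The stretch of CDC6 thus held a match of the same kind as those of MCM3, CDT1, UHRF1 and PCNA, and the whole window of CCNE1 held none. The genes shown were picked, and of the 10 genes with a window that were lower with both treatments 6 held a match.

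All 39 genes lay above the middle of the array in GM, with mean normalized log2 levels between 7.95 (ORC1) and 13.52 (PCNA) against a median of 6.44 over all probesets. Of the markers of cell types, the 5 epithelial genes measured lay between 12.73 (EPCAM) and 14.71 (KRT14) in GM. The 14 markers of leukocytes, fibroblasts, endothelium and melanocytes lay between 3.39 (CDH5) and 10.83 (COL1A1), with PTPRC, which marks leukocytes, at 4.31, and 5 of them (COL1A1, PECAM1, CD14, ITGAM and TYR) were above the median of all probesets. The values were not independent between arrays. Arrays with 3 consecutive replicate numbers in a group, called a run here, lay close together, although the labels do not name a batch. Over the 39 genes the median SD between the 18 GM runs was 0.38 on the log2 scale and the median SD within a run was 0.14. In untreated cells pairs of the genes had a median correlation of 0.43 over the 53 GM arrays, which share runs. Results are therefore given with all arrays and again with runs as a random block. The block takes a single within-run correlation for all probesets. The SDs of these genes imply a higher one, so the block corrects too little for them. In 23 arrays a stretch of rows that holds the brightest E2F1 probeset had been deposited 1 row out of register, where E2F1 read 12.13 to 14.23 against 6.74 to 9.30 in the 80 other arrays. The rows were moved back, which brought E2F1 to 7.43 to 8.71 in those arrays. They were the arrays of the first IMQ run, the first MALP2 run and the third N-9 run, and 14 GM arrays. These GM arrays included the GM run in which the 39 genes were lowest. The first N-9 run was in register. In each run the fault was in all arrays used or in none. Whether it marks arrays that were handled together was not tested.

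With all arrays used, 27 of the 39 genes were lower with N-9 and 14 with IMQ, CDC6 was higher with both, and at most 3 genes differed with any other treatment. The counts of lower genes were 8 with N-9 and 2 with IMQ when the first run of each was left out (8.57% and 2.21% of all probesets). They were 7 and 8 when GM replicates 1 to 9 were the only control arrays (6.77% and 10.8%). With N-9, 27 genes were lower and 1 was higher at an adjusted p under 0.05, where 10.2% and 7.47% of all 54613 probesets were lower and higher. With IMQ, 14 genes were lower and 2 were higher, where 6.24% and 4.73% of all probesets were. With a fold over 2 as well, 6 genes were lower and 1 higher with N-9 (2.11% and 2.29% of all probesets), and 4 were lower and 1 higher with IMQ (1.7% and 1.75%). Among probesets above the median level, where all 39 genes lie, 17.4% were lower with N-9 and 11% with IMQ. With MALP2, 2 genes were lower and 1 higher (3.71% and 3.32% of all probesets), and with HEC 1 was lower and none higher (0.472% and 0.333%). No gene passed with Pam3CSK4, TNF-α or CMC in limma, where 6, 2 and 4 of the 39 had an unadjusted p under 0.05, against 12.2%, 8.26% and 6.97% of all probesets. At the adjusted threshold 0.87% of all probesets were lower and 1.32% higher with Pam3CSK4, 0.196% and 0.537% with TNF-α, and 0.00732% were lower with CMC. The median log2 difference over the 39 genes was -0.56 with N-9 and -0.44 with IMQ, against -0.01 and 0.00 over all probesets. Without the first run of each it was -0.16 with N-9 and -0.07 with IMQ, and against GM replicates 1 to 9 it was -0.32 and -0.09. With all arrays it was -0.14 with MALP2, 0.15 with Pam3CSK4, -0.03 with TNF-α, -0.21 with HEC and 0.16 with CMC. All 7 comparisons share the GM arrays. With runs as a random block 20 genes were lower and 1 higher with N-9 (5.51% and 3.54% of all probesets), and 10 were lower and 2 higher with IMQ (2.93% and 2.49%).

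**Figure D1:**
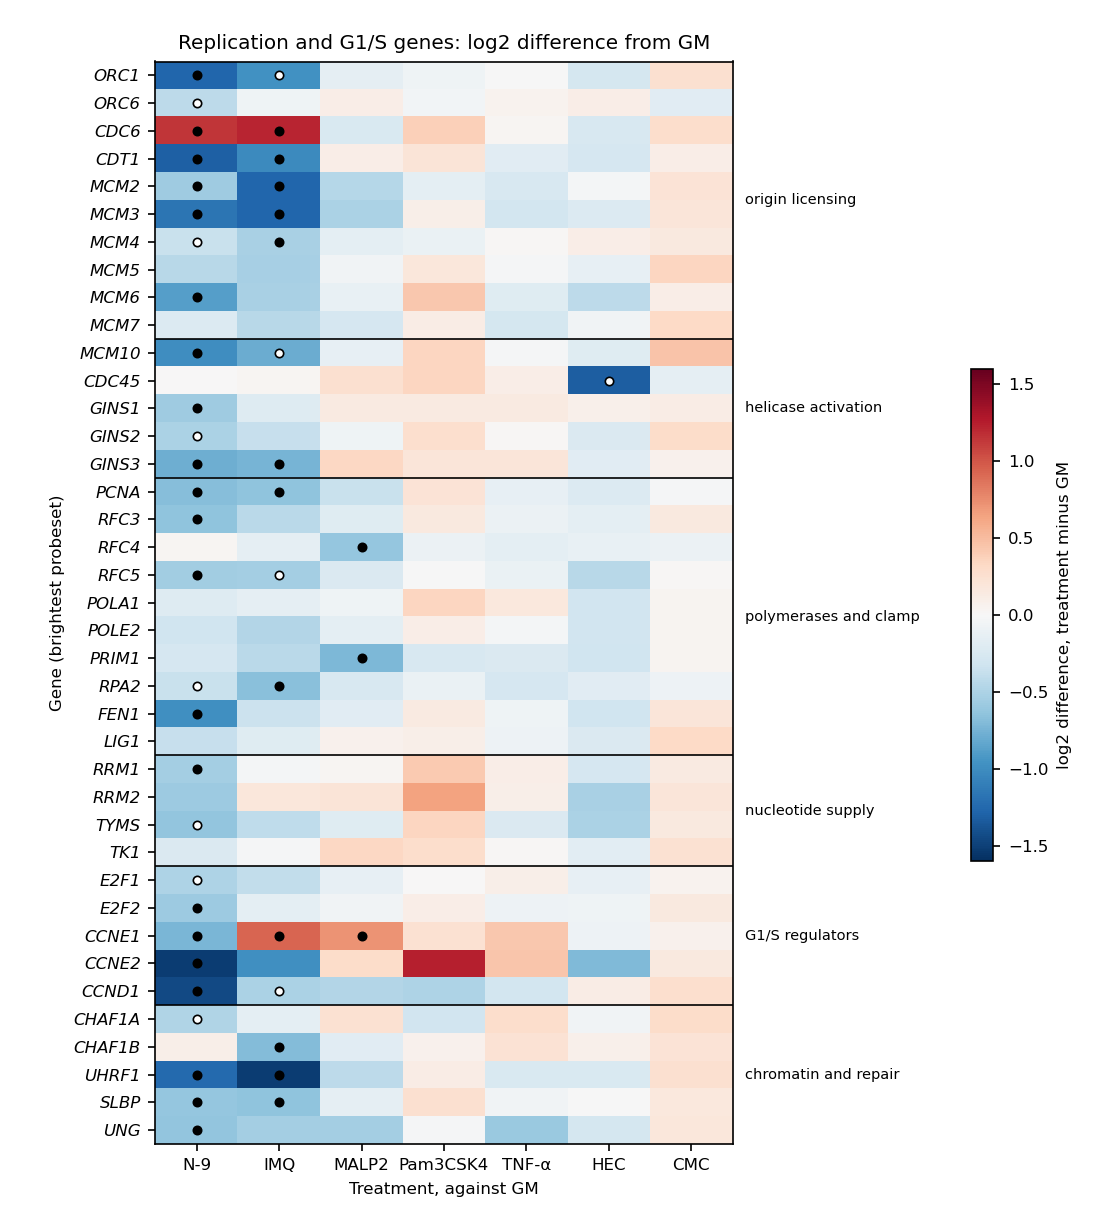
Log2 difference of each of the 39 genes (rows, by role) from GM in each of the 7 treatments (columns). Black dots mark genes at an adjusted p under 0.05 both with and without runs as a random block and white dots those that passed only without it, and in the N-9 column 27 lower genes and 1 higher gene (CDC6) have a dot.

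In N-9-treated cells 7 of the 10 licensing genes were lower, where 10.2% of all probesets were, and 17.4% of those above the median level. CDT1, the factor that brings MCM helicases to origins, lay between 7.31 and 10.12 (median 9.26) in 9 N-9 arrays, against 8.31 to 11.04 (median 10.35) in 53 GM arrays. All 9 N-9 arrays were thus below the GM median and 3 were below every GM array, and the log2 difference was -1.31 (SE 0.20, adjusted p = 1.03e-07). MCM3, a subunit of the helicase ring, lay between 8.63 and 11.24 (median 10.55) with N-9 and between 10.29 and 11.94 (median 11.48) in GM. Again all 9 N-9 arrays were below the GM median, with a difference of -1.16 (SE 0.16, adjusted p = 1.55e-08). ORC1 was lower, with a log2 difference of -1.26 (SE 0.24, adjusted p = 2.16e-05), and its arrays were scattered, at 3.94 to 8.94 (median 7.15) with N-9 and 6.51 to 8.71 (median 7.96) in GM. MCM6 (-0.88), MCM2 (-0.57), ORC6 (-0.42) and MCM4 (-0.36) were lower by less, whereas MCM5 (-0.44, adjusted p = 0.0708) and MCM7 (-0.22, adjusted p = 0.4) did not pass. ORC6 (adjusted p = 0.0628) and MCM4 (adjusted p = 0.0927) did not pass with runs as a block, which left 5 licensing genes (5.51% of all probesets). CDC6, which works beside CDT1 in the same loading step, was higher, and the difference of 1.14 (SE 0.15, adjusted p = 2.44e-09) is a 2.21-fold increase. Its levels were 11.19 to 12.05 (median 11.46) with N-9 and 9.61 to 11.35 (median 10.47) in GM, so that 7 of 9 N-9 arrays were above every GM array.

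Downstream of licensing, 4 of 5 genes of helicase activation were lower with N-9 (10.2% of all probesets). These were MCM10 (-0.99), GINS3 (-0.79), GINS1 (-0.56) and GINS2 (-0.50), while CDC45 was at 0.01 (adjusted p = 0.991). Of the 10 genes of the polymerases and the clamp 5 were lower, against the same 10.2% of all probesets. FEN1, which trims Okazaki fragments, had the smallest p of these (difference -0.98, SE 0.12, adjusted p = 5.38e-10), with 10.25 to 11.36 (median 10.54) in N-9 arrays and 10.79 to 12.42 (median 11.59) in GM arrays. PCNA (-0.68), RFC3 (-0.64), RFC5 (-0.55) and the single-strand binding subunit RPA2 (-0.35) were lower as well. POLA1 (-0.20), POLE2 (-0.31), PRIM1 (-0.27), LIG1 (-0.37) and RFC4 (0.03) did not pass. Nucleotide supply had RRM1 (-0.54) and TYMS (-0.64) lower, with RRM2 at -0.58 (adjusted p = 0.116) and TK1 at -0.24 (adjusted p = 0.411). Among genes of chromatin and repair UHRF1, which reads newly copied DNA for methylation, differed by -1.24 (SE 0.22), and SLBP, the binding protein of histone mRNA, by -0.62 (SE 0.09). UNG (-0.63) and CHAF1A (-0.48) were lower too, and CHAF1B was at 0.09 (adjusted p = 0.662). With runs as a block GINS2 (adjusted p = 0.0661), RPA2 (0.0527), TYMS (0.0671) and CHAF1A (0.157) did not pass.

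With IMQ 5 of the 10 licensing genes were lower, 2 of the 5 of helicase activation, 3 of the 10 of the polymerases and the clamp, and 3 of the 5 of chromatin and repair. Over all probesets 6.24% were lower, and 11% of those above the median level. MCM2, another subunit of the ring, read 9.47, 9.71, 9.66, 10.38, 10.65 and 10.52 in the 6 IMQ arrays, against 10.51 to 12.04 (median 11.39) in GM. Of the IMQ arrays 4 were below every GM array, and the difference was -1.27 (SE 0.18, adjusted p = 3.71e-08). MCM3 differed by -1.27 (SE 0.19, adjusted p = 3.13e-07), with 9.52 to 10.83 (median 10.19) in IMQ arrays and 10.29 to 11.94 (median 11.48) in GM arrays. UHRF1 had the largest decrease of the 39 genes with IMQ (-1.52, SE 0.27, adjusted p = 9.05e-06), at 8.94 to 11.17 (median 10.21) in IMQ arrays and 10.22 to 12.43 (median 11.83) in GM arrays. CDT1 (-1.02), ORC1 (-0.97), MCM10 (-0.79), GINS3 (-0.74), CHAF1B (-0.69), RPA2 (-0.67), PCNA (-0.64), SLBP (-0.64), RFC5 (-0.54), MCM4 (-0.51) and CCND1 (-0.51) made up the rest of the 14 lower genes. Of these ORC1 (adjusted p = 0.102), MCM10 (0.0772), RFC5 (0.0852) and CCND1 (0.136) did not pass with runs as a block. None of the 4 nucleotide supply genes passed, with RRM1 at -0.03 and RRM2 at 0.18. CDC6 was higher by 1.21 (SE 0.18, adjusted p = 1.47e-07), with 11.00 to 12.35 (median 11.76) in IMQ arrays against 9.61 to 11.35 (median 10.47) in GM arrays.

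The runs of a treatment differed in how low the genes were. For each array the median deviation of the 39 genes from their GM means was taken, and the 53 GM arrays lay between -0.51 and 0.48. The mean over the first N-9 run (replicates 1 to 3) was -1.26, and the other N-9 runs were at -0.04 and -0.22. The first IMQ run was at -0.84 and the second at -0.01. Thus 1 run of each treatment lay outside the GM arrays and the others lay among them. In the first N-9 run 31 of the 39 genes had a mean below that of every GM run, where 11.5% of all probesets did, against 6 genes (12.9% of all probesets) in the second N-9 run and 4 genes (7.13%) in the third. In the first IMQ run the count was 19 (8.71%) and in the second it was 3 (5.27%). Without its first run N-9 had 8 genes lower (CDT1, MCM3, PCNA, FEN1, CCNE1, CCNE2, CCND1, SLBP) and CDC6 higher, where 8.57% and 5.78% of all probesets were lower and higher. Without its first run IMQ had 2 lower (MCM2, CHAF1B) and 2 higher (CDC6, CCNE1), where 2.21% and 2.24% of all probesets were. Among the largest decreases named above, ORC1 was then at -0.31 and UHRF1 at -0.61 with N-9, and UHRF1 at -0.61, MCM3 at -0.69 and CDT1 at -0.60 with IMQ, none of which passed.

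**Figure D2:**
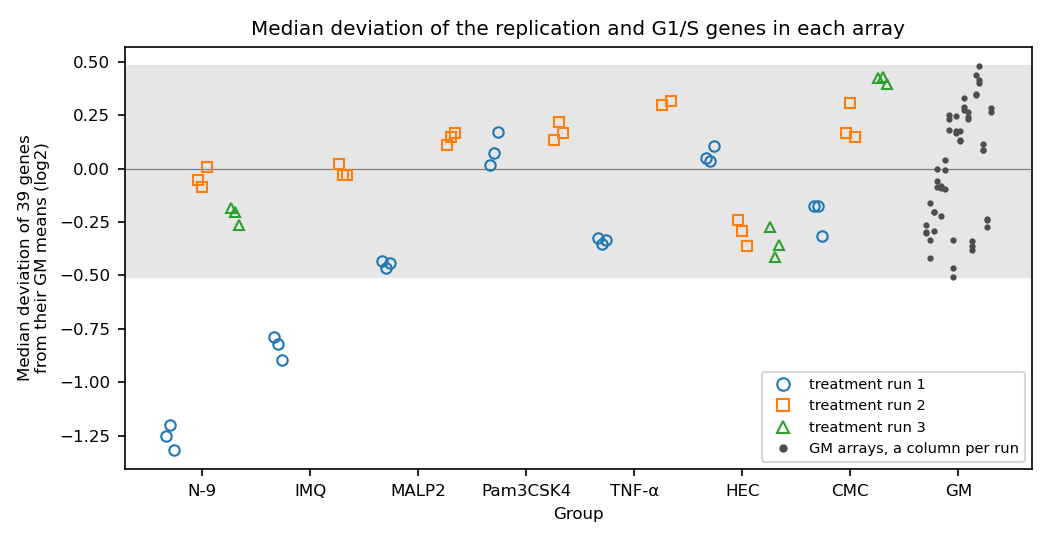
Median log2 deviation of the 39 genes from their GM means in each array (vertical axis; symbols mark the runs of a treatment, dots GM arrays), by group, with the range of the GM arrays shaded. The first runs of N-9 (-1.26) and IMQ (-0.84) are below the shaded range, and the later runs of both lie within it.

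A measure of RNA quality was read for the same runs. The 3' signal of ACTB minus its 5' signal, which grows as RNA is degraded, was 1.45 on the log2 scale in the first IMQ run and 0.46 in the second, and 0.49, 0.30 and 0.38 in the 3 N-9 runs. The 18 GM runs lay between 0.14 and 1.12. The GM run with 1.12 (replicates 22 to 24) was the one in which the 39 genes were lowest, at -0.43. In the GM run with 0.14 (replicates 49 to 51) they were at -0.25. The first IMQ run was above the range of the GM runs and the first N-9 run was inside it. Whether RNA quality had a part in the N-9 or the IMQ result was not tested.

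A few genes stood apart from GM in every run. With N-9 the run means of FEN1 and CCND1 were all below every GM run (0.679% of all probesets). The second CCND1 probeset was at -0.22 with N-9 (adjusted p = 0.571). The CDC6 run means of 11.53, 11.37 and 12.03 were all above the GM runs, the highest of which was at 11.31 (0.648% of all probesets). With IMQ the run means of MCM2, RPA2 and CHAF1B were all below every GM run (1.58% of all probesets). RPA2 was only just so, at 11.52 in the second IMQ run against 11.54 in the lowest GM run. The run means of CCNE1 were above every GM run, and 1 gene of 39 is a share like the 2.06% of all probesets. CHAF1B, a subunit of the chromatin assembly factor, had run means of 7.68 and 7.66 with IMQ, and the lowest GM run was at 7.74. CDC6 was at 11.10 and 12.32 in the 2 IMQ runs, of which only the second was above every GM run, and without it the difference was 0.61 (adjusted p = 0.0919).

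**Figure D3:**
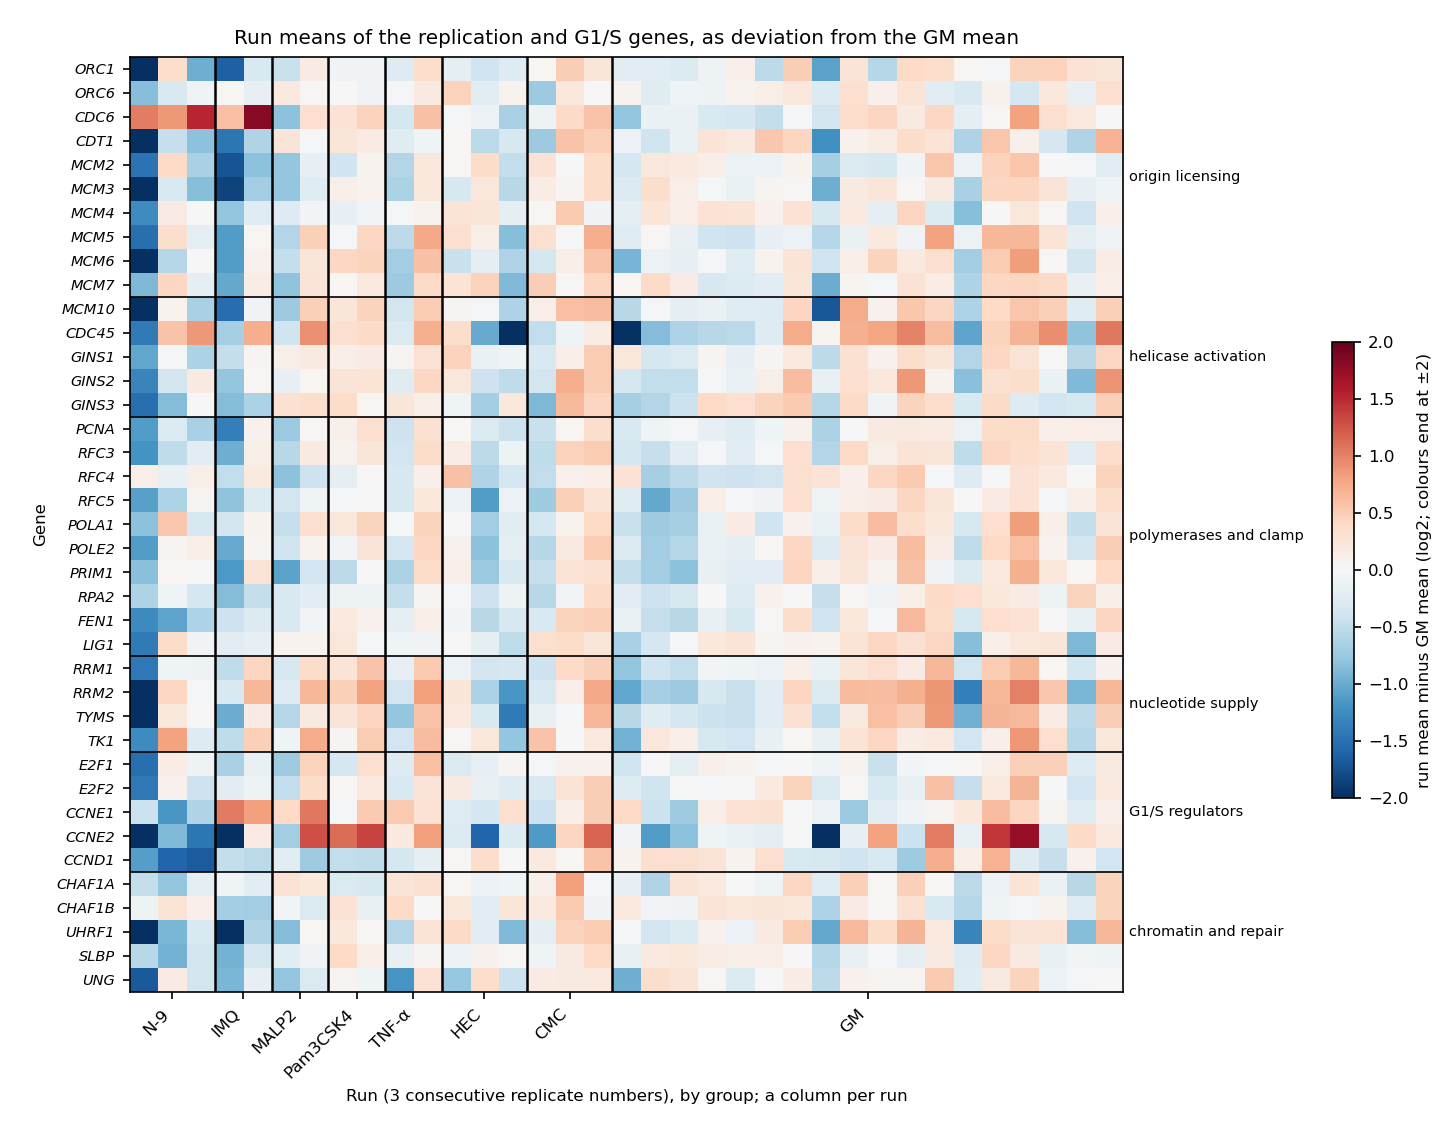
Run means of the 39 genes (rows, by role) as log2 deviation from the GM mean, with a column for each run and the 18 GM runs on the right. The first column of N-9 and of IMQ is low for most genes (31 and 19 genes below every GM run), CDC6 is high in all 3 N-9 columns, and single GM columns are also low, as for CCNE2 and CDC45.

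The cyclins of the G1/S step each had a pattern of their own. Cyclin D1 (CCND1), the partner of CDK4 and CDK6, lay between 9.51 and 10.90 (median 10.33) in N-9 arrays and between 10.78 and 12.57 (median 11.71) in GM arrays. Of the N-9 arrays 8 of 9 were below every GM array, and the difference of -1.45 (SE 0.13, adjusted p = 1.24e-15) had the smallest p of the 39 genes. It was -0.51 with IMQ (SE 0.16, adjusted p = 0.0223, and 0.136 with runs as a block). Cyclin E1 (CCNE1), which activates CDK2, was lower with N-9 (-0.73, SE 0.14, adjusted p = 4.7e-05) and higher with IMQ (0.93, SE 0.17, adjusted p = 2.47e-05) and MALP2 (0.72, SE 0.17, adjusted p = 0.00221). Its levels were 7.29 to 9.04 (median 8.28) with N-9, 9.61 to 10.29 (median 9.91) with IMQ, 9.23 to 10.20 (median 9.70) with MALP2 and 7.88 to 9.67 (median 9.06) in GM. The N-9 and IMQ arrays did not overlap, and 5 of 6 IMQ arrays were above every GM array. Its relative cyclin E2 (CCNE2) lay at 7.17 to 9.02 (median 8.40) with N-9 and spread from 7.34 to 11.57 (median 9.63) in GM, a difference of -1.52 (SE 0.31, adjusted p = 9.18e-05). The 6 Pam3CSK4 arrays were at 10.78 to 11.28 (median 11.01) for CCNE2, within the GM range, and the difference of 1.24 (SE 0.37) had an adjusted p of 0.0514. The transcription factors E2F1 (-0.49, SE 0.14, adjusted p = 0.0089, and 0.0586 with runs as a block) and E2F2 (-0.59, SE 0.14, adjusted p = 0.00119) were lower with N-9. Neither passed with IMQ on its brightest probeset (-0.40 and -0.16), and E2F1 did on its second (-0.72, adjusted p = 0.0412).

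**Figure D4:**
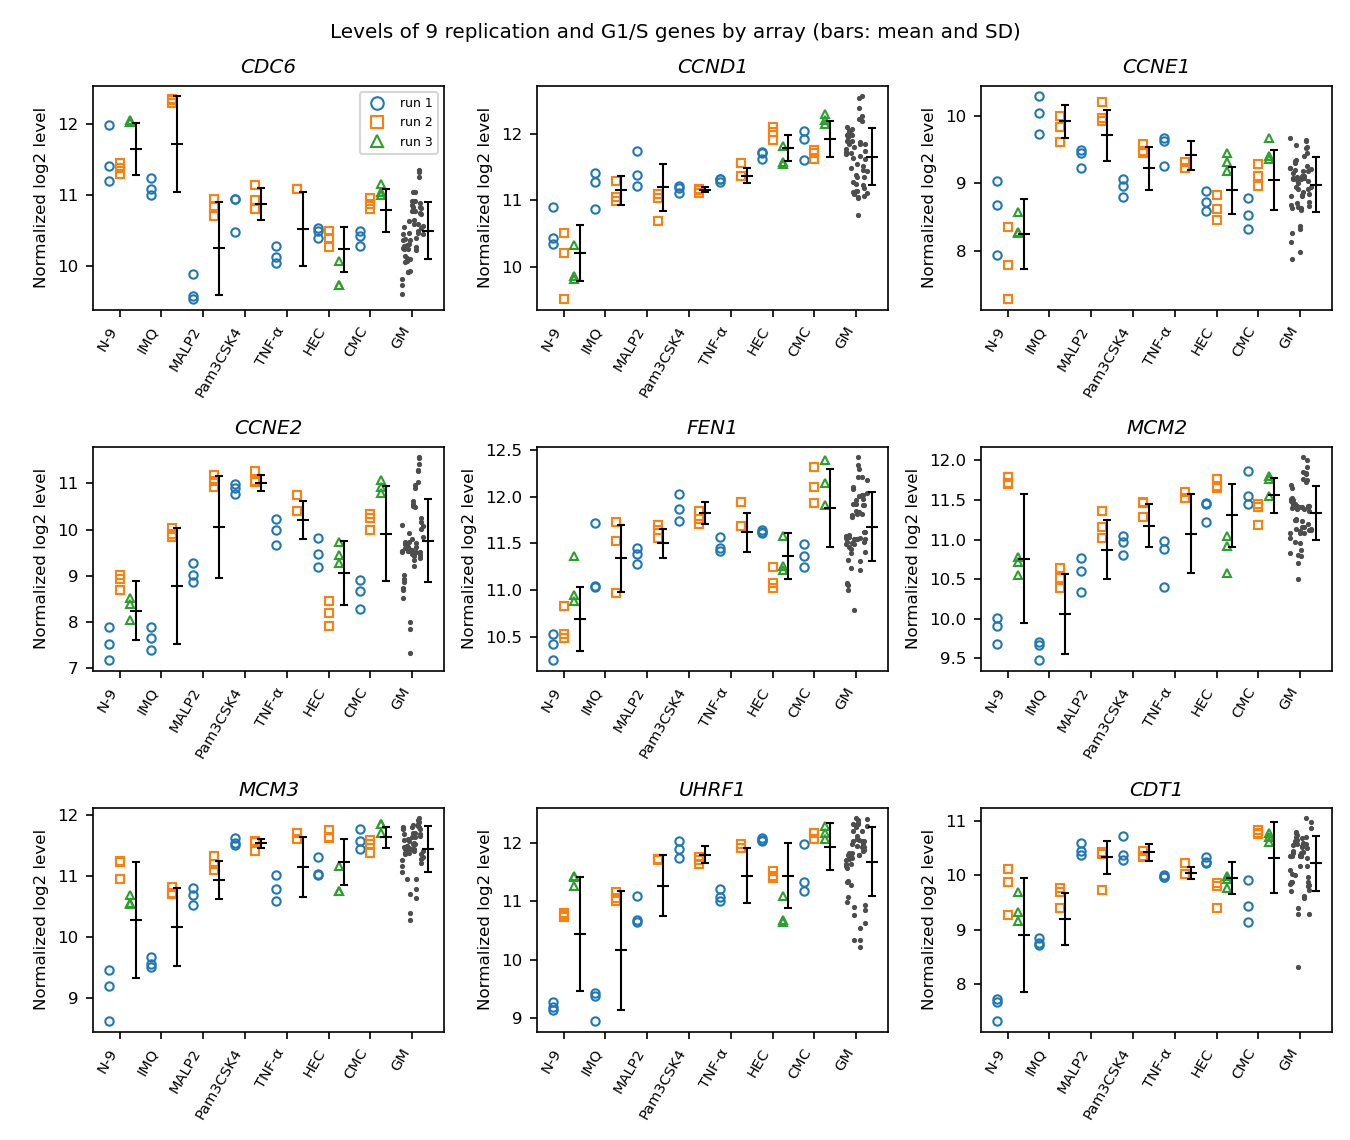
Normalized log2 levels of 9 genes in each array, by group (symbols mark the runs of a treatment, dots GM arrays), with bars for the mean and SD of each group. CDC6 has high levels with N-9 (11.19 to 12.05) and IMQ (11.00 to 12.35), CCND1 is lowest with N-9 (9.51 to 10.90), CCNE1 has its lowest mean with N-9 and its highest with IMQ, and MCM3, UHRF1 and CDT1 are lowest in the first run of N-9 or IMQ.

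Set against each other, IMQ and N-9 differed for 5 of the 39 genes, 3 higher and 2 lower with IMQ (5.65% and 5.3% of all probesets). CCNE1 was higher with IMQ by 1.66 (SE 0.21, adjusted p = 5.15e-09), a 3.17-fold difference. CCND1 (0.94, SE 0.19, adjusted p = 0.000313) and FEN1 (0.64, SE 0.18, adjusted p = 0.0106) were higher with IMQ as well, on their brightest probesets. The second CCND1 probeset was at -1.04 with IMQ and -0.22 with N-9 against GM, the opposite order, and that of FEN1 was at -0.90 with IMQ and -0.87 with N-9. MCM2 was lower with IMQ, at -0.70 (SE 0.22, adjusted p = 0.0258) and CHAF1B at -0.78 (SE 0.17, adjusted p = 0.00052). With runs as a block 2 were higher and 1 was lower (1.91% and 1.77% of all probesets), and MCM2 (adjusted p = 0.102) and FEN1 (adjusted p = 0.0933) no longer passed. The remaining 34 genes did not pass. The median half-width of the unadjusted 95% interval was 0.45, and 0.52 with runs as a block. Differences of that size cannot be told from none, and after adjustment somewhat larger ones can fail too.

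The 2 lipopeptide ligands and TNF-α gave few calls among the genes. With MALP2 the clamp loader subunit RFC4 was at 11.05 to 11.74 (median 11.53) against 11.35 to 12.61 (median 12.19) in GM (difference -0.62, SE 0.15, adjusted p = 0.00362). The primase PRIM1 was at 9.74 to 10.68 (median 10.32) with MALP2 and 9.85 to 11.73 (median 10.96) in GM (-0.72, SE 0.19, adjusted p = 0.00839). The MALP2 and GM arrays overlapped for both genes. Without the first MALP2 run RFC4 was at -0.42 (adjusted p = 0.349) and PRIM1 at -0.38 (adjusted p = 0.584), and CCND1 was the 1 lower gene (2.34% of all probesets). Without the second run CCNE1 was at 0.40 (adjusted p = 0.462), and 5 genes were lower (CDC6, PCNA, RFC4, PRIM1, E2F1), where 1.9% of all probesets were. CDC6 was then at -0.82 (adjusted p = 0.0268). With Pam3CSK4 28 of the 39 genes were above their GM means, while 28333 of all 54613 probesets were below theirs. The 39 genes vary together between runs, so the 28 are not separate observations. Their differences ran from CCND1 at -0.50 to CCNE2 at 1.24, and the reductase subunit RRM2 was at 0.64 (SE 0.31, adjusted p = 0.382). With TNF-α the differences ran from -0.60 (UNG, which removes uracil from DNA) to 0.45 (CCNE2). UNG read 10.73, 10.66, 10.77, 12.16 and 12.22 in the 5 TNF-α arrays, against 10.71 to 12.53 (median 11.95) in GM, so that the arrays of the first run were at the low end of GM and those of the second were above its median. Without the second TNF-α run UNG was lower, with a log2 difference of -1.19 and passed, and without the first it was at 0.29 (adjusted p = 0.996). The median half-width of the unadjusted 95% interval was 0.37 for MALP2 and Pam3CSK4 and 0.40 for TNF-α.

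With the gels a single gene passed. With HEC CDC45, which binds the MCM ring when it is turned on, was lower, with a log2 difference of -1.32 (SE 0.35, adjusted p = 0.0459), with 2.91 to 8.98 (median 7.70) in HEC arrays and 5.60 to 9.72 (median 8.55) in GM arrays. Its HEC run means were 8.81, 7.45 and 5.17, the difference was -0.33 (adjusted p = 0.642) without the third run and -1.47 (adjusted p = 0.0813) without the second, and the adjusted p was 0.544 with runs as a block. CCNE2 was at -0.71 with HEC (SE 0.31, adjusted p = 0.25), and 7 of the 39 genes had an unadjusted p under 0.05 (15.2% of all probesets). With CMC the differences lay between -0.18 (ORC6) and 0.45 (MCM10), with MCM5 at 0.34, and the smallest adjusted p was 0.698. Against GM, 34 of the 39 genes had a lower mean with HEC, as did 27192 of all 54613 probesets. Between the gels none of the 39 genes passed in limma, and 14 had an unadjusted p under 0.05 against 7.17% of all probesets. The mean was lower with HEC than with CMC for 38 of them (27565 of all 54613 probesets), with a median of -0.37. It was also lower for 29 of 30 genes of mitosis (a list described later). The 39 genes vary together between runs, so the 38 are not separate observations. The means over runs of the array medians of the genes were 0.06, -0.30 and -0.35 with HEC and -0.22, 0.21 and 0.42 with CMC, all within the span of the GM runs (-0.43 to 0.43).

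For 22 of the 39 genes the array carries more than 1 probeset, 72 probesets in all, and the second brightest was set beside the brightest. With N-9, 18 of the 22 brightest and 11 of the 22 second probesets passed, 9 genes passed with both in the same direction and none in opposite directions. With IMQ the counts were 8, 9, 3 and 0. Over all probesets 10.2% were lower and 7.47% higher with N-9, and 6.24% and 4.73% with IMQ. CDC6 had differences of 1.07 with N-9 and 1.06 with IMQ on its second probeset, close to those of the brightest. CCND1 did not behave alike on its 2 probesets. The second was at -0.22 with N-9 (adjusted p = 0.571), -1.04 with IMQ (adjusted p = 0.00471) and -1.01 with MALP2 (adjusted p = 0.00993). FEN1 was at -0.87 with N-9 (adjusted p = 3.1e-06) and -0.90 with IMQ (adjusted p = 9.19e-05) on its second probeset, and CCNE2 was at 1.10 with Pam3CSK4 (adjusted p = 0.0233). The second CCNE1 probeset was dim, with a mean level of 3.88, and passed in neither comparison. With IMQ RFC3 (-1.03), CHAF1A (-0.87), CCNE2 (-0.87), E2F1 (-0.72), MCM7 (-0.43) and FEN1 passed on the second probeset only. CCNE1, CDT1, MCM4, MCM10 and RFC5 passed with IMQ on the brightest only.

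**Figure D5:**
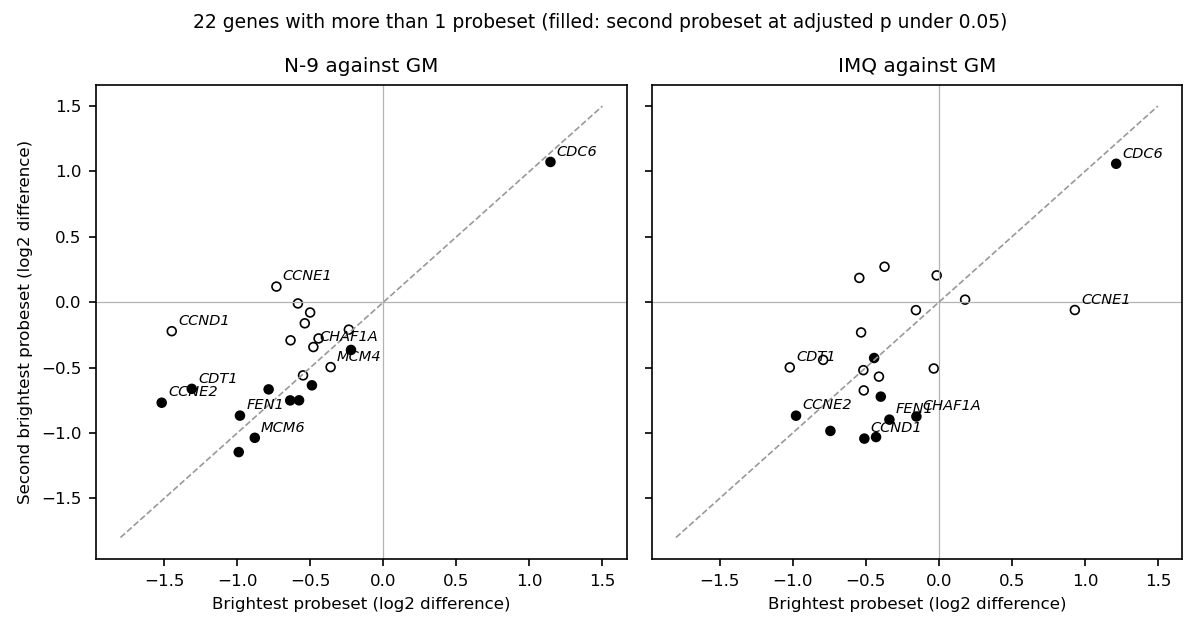
Log2 difference from GM on the second brightest probeset (vertical axis) against the brightest (horizontal axis) for the 22 genes with more than 1 probeset, with N-9 (left) and IMQ (right), where the dashed line marks equal values. Filled points have a second probeset at an adjusted p under 0.05, and CDC6 lies close to the line in both, whereas CCND1 lies above it with N-9 (-1.45 and -0.22) and below it with IMQ (-0.51 and -1.04).

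Other genes of replication and the G1/S step, a list of 66 of which 63 were measured, were 26 lower and 5 higher with N-9 (10.2% and 7.47% of all probesets), 17 lower and 1 higher with IMQ (6.24% and 4.73%), 9 lower and 3 higher with MALP2 (3.71% and 3.32%), and 1 lower and 2 higher with Pam3CSK4 (0.87% and 1.32%). With HEC 1 was lower (0.472%). Their median log2 difference was -0.29 with N-9 and -0.25 with IMQ. CDKN1A, the p21 inhibitor of cyclin-dependent kinases, had levels of 11.55 to 12.86 (median 12.39) with N-9, 12.22 to 12.69 (median 12.30) with IMQ, 11.24 to 12.89 (median 12.27) with MALP2 and 9.61 to 12.36 (median 10.75) in GM. It was higher by 1.47 (adjusted p = 2.81e-07), 1.53 (adjusted p = 1.2e-05) and 1.33 (adjusted p = 0.00027) in these treatments, and by 0.96 with Pam3CSK4 (adjusted p = 0.0367, and 0.131 with runs as a block). With N-9 the phosphatase CDC25A, which activates CDK2, was lower, with a log2 difference of -1.68 (adjusted p = 0.00114) and the exonuclease EXO1 at -1.35 (adjusted p = 0.000218). The N-9 run means of CDC25A lay between 5.59 and 7.61, within the span of the GM runs (5.51 to 9.52). The N-9 run means of EXO1 spread from 4.72 to 9.26 around a GM mean of 8.84, so that not every run was low. With IMQ DBF4, the activator of the CDC7 kinase that fires origins, was lower, with a log2 difference of -1.11 (adjusted p = 7.43e-05), and the checkpoint mediator CLSPN at -1.10 (adjusted p = 0.000946). The IMQ run means of DBF4 were 10.08 and 11.24, and only the lower was under the lowest GM run (10.97). The IMQ run means of CLSPN were 6.21 and 8.59, against a GM mean of 8.49, so that 1 of the 2 runs was low. The CLSPN probeset lies in a stretch of rows that was moved back in the first IMQ run. With MALP2 E2F5, an E2F factor that represses, was lower, with a log2 difference of -1.14 (adjusted p = 0.000478, and 0.0581 with runs as a block), as were ORC3 (-0.64, adjusted p = 0.000201) and the histone chaperone NASP (-0.64, adjusted p = 0.00217). A list of 30 genes of mitosis, measured in the same arrays, had 3 lower with N-9, a share like the 10.2% of all probesets, and 6 lower with IMQ (6.24% of all probesets) and none higher, with medians of -0.22 and -0.29. The lists were not tested against each other.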

How the data were processed

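RNA of Vk2/E6E7 cells was hybridized to 105 Affymetrix U133 Plus 2.0 arrays, and the authors deposited log2 values in a single table. MAS5 and GCOS 1.3 are named in the submitters' processing notes, whereas the methods describe RMA. Turned back to signals, 100% of the values of each array other than TNF-α replicate 6 lie on steps of 0.1, the form of MAS5, in which dim probesets are noisy. A GM array (its highest correlation with any other array was 0.0484) and TNF-α replicate 6 (a mean of replicates 1 to 3) were left out. In 23 arrays 2 stretches of rows (101 and 1001) were out of register by 1 row and were moved back, which departs from the planned analysis. Values were quantile normalized, and the 54613 probesets other than 62 controls were tested in limma 3.58.1 (R 4.3.3). A mean was fitted for each group with eBayes, and adjustment was by Benjamini-Hochberg. The fit without runs was tried on simulated data. The simulated arrays were drawn independently, so they cannot show how the calls hold where arrays of a run vary together. There was no filter on dim probesets. Runs of 3 consecutive replicate numbers were fitted as a random block (consensus correlation 0.43). Of the probesets 41097 name 1 gene, 1801 several and 11777 none. Promoters were matched to RefSeq (GRCh38.p14). The number of arrays limits the precision.

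Per treatment the text names genes at an adjusted p under 0.05 with a fold over 2 (up to 6 lower and 4 higher), or else the 2 of largest difference, and of the wider list up to 4 that passed; any of the 39 may also be given, and any other gene was picked with its values in view. The genes and lists were chosen with earlier results of these data known. Alternatives were no quantile normalization, an offset of 16, all 105 arrays, a filter on dim probesets, GM replicates 1 to 9 alone, a replicate block, the second brightest probeset, the methods' analysis of variance with a fold over 2, runs or TNF-α replicates left out, and, added after seeing the data, rows as deposited.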

Additional observations from a re-analysis of the deposited data

How the results depend on the processing

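Of the 39 genes, 27 were lower with N-9 (10.2% of all probesets) and 14 with IMQ (6.24%). These counts moved with the control arrays, the runs used and the test. With all 105 arrays 13 were lower with N-9 (5.5% of all probesets), 5 with IMQ (2.74%), 1 with MALP2 (1.28%) and 0 with HEC (0.097%). Controls were next limited to GM replicates 1 to 9, whose runs were below the GM mean for these genes. Then 7 were lower with N-9 (6.77% of all probesets) and 8 with IMQ (10.8%). Of the genes 1 each was lower with MALP2 (8.55%), Pam3CSK4 (6.77%) and TNF-α (4.17%) and 0 with HEC (0.00183%). On the higher side were 3 with MALP2 (7.73%), 9 with Pam3CSK4 (6.53%), 1 with TNF-α (3.59%) and 3 with CMC (0.764%). The median difference was then -0.32 with N-9 and -0.09 with IMQ, and it changed sign with MALP2 (0.16), TNF-α (0.22) and HEC (0.07). Same-numbered arrays did not deviate together throughout (the correlation with GM was over 0.1 in 6 of 9 pairs with N-9, from -0.22 to 0.32, in 6 of 9 with HEC, in 1 of 5 with TNF-α and in none with the others), so the numbers were not taken to pair samples. With the replicate block and these controls 11 were lower with N-9 (7.4% of all probesets) and 9 with IMQ (13.3%). Then 1 each was lower with MALP2 (11.4%), Pam3CSK4 (10.3%) and TNF-α (7.41%) and 0 with HEC (0.00183%). Higher were 4 with IMQ (12.6%), 6 with MALP2 (10.9%), 12 with Pam3CSK4 (10.2%), 8 with TNF-α (6.72%) and 8 with CMC (1.57%). The median with IMQ turned to 0.02.

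With the methods' analysis of variance and a fold over 2, 6 were lower with N-9, 4 with IMQ and 0 with MALP2 and HEC. Higher were 1 with IMQ, 0 with MALP2 and 1 with Pam3CSK4, and between IMQ and N-9 1 was higher and 0 lower. The share of all probesets was not taken for this test. On the second brightest probeset 1 was higher with IMQ (4.73% of all probesets), 0 with MALP2 (3.32%), 1 with Pam3CSK4 (1.32%) and 0 with IMQ against N-9 (5.65%). With runs as a random block 0 were lower with HEC and 1 with IMQ against N-9 (0% and 1.77% of all probesets). Among probesets above the median level 4 were lower with MALP2 (8.38% of these probesets), and 1 was higher and 1 lower with Pam3CSK4 (3.23% and 2.63%). Without quantile normalization, and with the offset, 1 was higher with Pam3CSK4 (1.34% and 1.49% of all probesets), and with the offset 0 were lower with HEC (0.447%). Leaving out 1 run at a time gave 8 to 32 lower genes with N-9 (8.57% to 11.9% of all probesets). With IMQ 2 to 21 were lower and 1 to 2 higher (2.21% to 5.87% and 2.24% to 3.87%). With MALP2 1 to 5 were lower and 0 to 1 higher (1.9% to 2.34% and 1.93% to 2.07%). With TNF-α (0.0256% to 0.432%) and with HEC (0.374% to 2.68%) 0 to 1 were lower. UNG with TNF-α changed sign to 0.29 without the first run. The cause of these changes was not tested. Rows as deposited, an alternative chosen after seeing the data, moved none of the counts by over 1.5 times. A total of 54 values of counts moved by over 1.5 times, or to or from 0. The other 166 values stayed within 1.5 times, among them counts of 0 that stayed at 0. Of the values of single named genes under the alternatives 218 kept direction and side of the threshold, 25 lost and 10 gained the call.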
